A study of Mus musculus with 12 samples.

Results

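Hs3st4 and 9 further genes for the sulfotransferases of heparan sulfate were followed in ribosome-bound mRNA of CA1 pyramidal neurons, 10 of the 24079 genes in the count table. They were chosen by gene symbol. Hs3st4 was chosen because it was already known to be lower in Fmr1-/y libraries of this series, so its genotype difference is given as a description, and the other 9, Hs3st1, Hs3st2, Hs3st5, Hs6st1, Hs6st2, Hs6st3, Hs2st1, Ndst1 and Ndst3, because their enzymes act on the same chain. All 10 passed the filter of at least 15 reads in total, with between 21 reads (Hs3st5) and 6534 reads (Ndst1) in a library.

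The study compared mRNA on tagged ribosomes between 6 wild-type and 6 Fmr1-/y libraries to find messages whose translation differs without FMRP, the RNA-binding protein encoded by Fmr1. Wild-type libraries came from Wfs1-CreERT2:RiboTag hippocampus and Fmr1-/y libraries from hippocampus labelled Wfs1-CreERT2:RiboTag:Frm1 knockout, in which Fmr1 is lost in every cell and not in CA1 alone. All mice, of both genotypes, were C57BL/6J males aged 2 to 6 months, carried the Wfs1-driven, tamoxifen-inducible Cre and the RiboTag allele, which puts a hemagglutinin tag on the ribosomal protein Rpl22, and received tamoxifen at 100 mg/kg for 3 days, 1 week before the tissue was taken. Each library was a pool of 4 to 6 mice, so the SD below is between pools.

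Heparan sulfate is a chain of alternating sugars carried by glypicans, syndecans, agrin and perlecan at the cell surface and in the matrix. In the Golgi, the N-deacetylase/N-sulfotransferases (Ndst genes) first replace acetyl groups on glucosamine by sulfate, after which an epimerase, the 2-O-sulfotransferase (Hs2st1) and the 6-O-sulfotransferases (Hs6st genes) modify the chain, and the 3-O-sulfotransferases (Hs3st genes) add the rarest group last. The pattern of sulfates sets which growth factors, adhesion proteins and synaptic organisers the chain binds, and several 3-O-sulfotransferases, Hs3st2 and Hs3st4 among them, are known as enzymes of the nervous system.

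Between 39400980 and 65565479 reads per library were counted on genes. Fmr1, the targeted gene, measured 47.9 to 51.3 CPM (reads scaled to a common library size by the TMM method) in wild-type libraries, and the Fmr1-/y libraries held 0 reads of it, except replicate 2 with 1 read. The CA1 markers Wfs1, Slc1a1, Fibcd1, Pou3f1 and Mpped1 summed to 2040 to 2726 CPM in wild-type and 1870 to 2442 CPM in Fmr1-/y libraries, while markers of every other cell type examined were also present. None of the markers was at 0 in all libraries: choroid plexus markers, led by Ttr, summed to 6381 to 17505 CPM, oligodendrocyte markers to 978 to 1629 CPM, astrocyte markers to 723 to 1240 CPM, interneuron markers to 103 to 220 CPM and dentate granule markers to 98.2 to 151 CPM over the 12 libraries. The levels below are therefore those of the pulldown, and fewer cells of a type and less RNA per cell cannot be told apart in them.

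The genes of a subfamily share stretches of coding sequence, and these are shown because a read of 50 nucleotides can be given to the wrong gene where it lies wholly within one. The coding sequences of Hs3st4 and Hs3st2 were 72.8% identical over 1101 aligned positions, and their longest identical run, in exon 1 of each gene, was 22 nucleotides (capitals), with 20 flanking nucleotides on each side in lower case. The stretch lies at chr7:123983830-123983891 for Hs3st4 and at chr7:121393151-121393212 for Hs3st2 (GRCm38, plus strand).
Hs3st4: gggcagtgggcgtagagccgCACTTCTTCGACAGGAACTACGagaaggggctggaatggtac
Hs3st2: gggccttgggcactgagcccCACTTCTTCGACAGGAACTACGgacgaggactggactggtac
Hs6st2 and Hs6st3 were 72.7% identical over 1394 positions and shared a run of 52 nucleotides, long enough to hold 3 of the 50-nucleotide windows. With its flanks the run spans chrX:51679925-51680016 (minus strand) and chr14:119138989-119139080 (plus strand).
Hs6st2: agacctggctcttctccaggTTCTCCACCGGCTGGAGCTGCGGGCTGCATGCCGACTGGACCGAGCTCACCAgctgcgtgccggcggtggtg
Hs6st3: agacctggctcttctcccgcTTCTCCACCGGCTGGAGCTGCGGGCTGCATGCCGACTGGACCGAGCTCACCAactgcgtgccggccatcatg
Ndst3 and Ndst4 were 77.0% identical over 2613 positions and shared a run of 56 nucleotides in exon 4 of each. With its flanks this run spans chr3:123627985-123628080 (minus strand) and chr3:125570775-125570870 (plus strand).
Ndst3: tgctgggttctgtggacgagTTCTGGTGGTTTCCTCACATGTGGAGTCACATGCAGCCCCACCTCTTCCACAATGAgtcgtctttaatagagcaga
Ndst4: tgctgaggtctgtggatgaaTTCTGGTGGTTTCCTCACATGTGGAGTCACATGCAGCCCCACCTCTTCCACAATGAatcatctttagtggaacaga
Hs3st4 was 65.9% identical to Hs3st1, with a longest run of 14 nucleotides, and 62.3% identical to Hs3st5, with a longest run of 9 nucleotides.

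Identical windows of read length were rare in all 10 genes. None of the 3140 windows of 50 nucleotides in the Hs3st4 transcript occurred in another of the 10 genes, and 5 (0.159%) occurred in any other annotated transcript. Hs6st2 and Hs6st3 shared 3 windows, Ndst3 shared 7 with Ndst4, and Hs3st1 shared 22 (0.989%) with the predicted gene Gm11033. Exons on the opposite strand overlapped 130 nucleotides of Hs3st4 (Gm27040), 276 of Hs3st2 (Gm36736) and 447 of Hs6st1 (Gm37335), and the counting kept reads of one strand only.

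The 10 genes lie on 8 chromosomes (RefSeq genes, GRCm38). Hs3st4 spans 417 kb of chromosome 7, from 123982366 to 124398989, and Hs3st2 (chromosome 7, 121391585 to 121501768) ends 2.48 Mb before it. Hs6st2 lies on the X chromosome, from 51386637 to 51681705, 17 Mb from Fmr1. The promoter window of 300 nucleotides matched to Hs3st4 (chromosome 7, 123982578 to 123982877) lies within the span above and does not hold its first base. It held 79.3% G and C and 47 CpG, against medians of 52.7% and 7 over 32851 such windows. That of Hs6st1 also held 47 CpG and that of Hs6st3 held 41, whereas the 2 windows of Ndst3 held 1 and 3. The windows of Hs6st3 and Ndst3 likewise lie within the gene, away from the outer end of its RefSeq span. Windows were found for 9 of the 10 genes.

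Hs3st4 stood at the head of the 10 genes when levels were divided by the length of the longest coding transcript. Averaged over the 12 libraries, it measured 24.4 ± 4.01 CPM per kb (SD, n = 12), followed by Ndst1 at 16.4 ± 2.64, Hs6st1 at 12.8 ± 1.15, Hs3st1 at 8.77 ± 0.687 and Hs2st1 at 6.24 ± 0.318 CPM per kb. Hs6st2 (4.96 ± 0.563 CPM per kb) and Ndst3 (4.85 ± 0.335 CPM per kb) came next, then Hs3st2 (2.14 ± 0.535 CPM per kb) and Hs6st3 (2.07 ± 0.548 CPM per kb), and Hs3st5 closed the order at 0.385 ± 0.146 CPM per kb. Neighbours were compared within libraries by a two-sided exact permutation test that flips the sign of each library's log2 ratio. The neighbours were taken from the order in these same libraries, so the p-values describe only how steady each ratio was across libraries. They do not cover the choice of length. In 7 of the 9 neighbouring pairs the first gene was the higher one in 12 of 12 libraries (p = 0.000488, the smallest that 12 libraries can give, adjusted p = 0.000628 over the 9 pairs by exact permutation). Hs3st4 exceeded Ndst1 by 0.57 ± 0.23 on the log2 scale (SD, n = 12 libraries). Hs6st2 and Ndst3 did not differ beyond their spread, with Hs6st2 higher in 5 of 12 libraries (mean log2 ratio 0.03 ± 0.24, adjusted p = 0.716, exact permutation), and neither did Hs3st2 and Hs6st3, with Hs3st2 higher in 6 of 12 (0.06 ± 0.48, adjusted p = 0.716, exact permutation). Several places in the order changed with the length used. With the mean length of a gene's coding transcripts, Ndst1 stood first at 32.5 CPM per kb and Hs3st4 second at 24.4 CPM per kb, and Ndst3 (6.61 CPM per kb) stood above Hs2st1 (6.24 CPM per kb) and Hs6st2 (4.98 CPM per kb). With the union of all exons, Hs6st3 (2.07 CPM per kb) stood above Hs3st2.

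**Figure D1:**
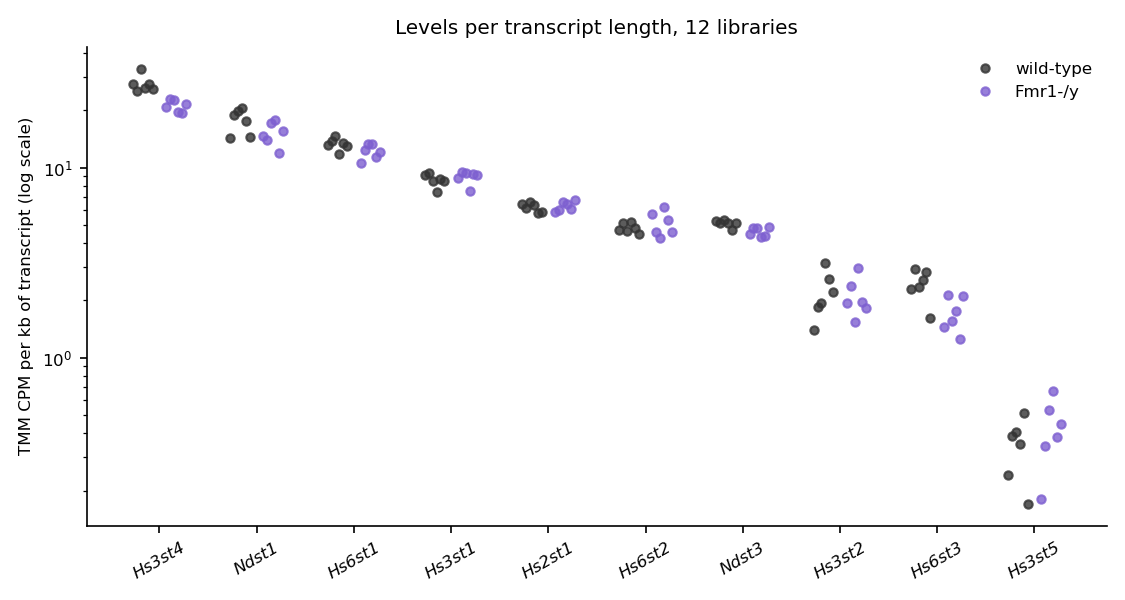
Level of each gene in TMM CPM per kb of its longest coding transcript, on a log axis, with 1 point per library (black, 6 wild-type; purple, 6 Fmr1-/y), genes ordered by the mean over 12 libraries. Hs3st4 lies at the left between 19.4 and 33.1 CPM per kb and Hs3st5 at the right between 0.170 and 0.670 CPM per kb, while Hs6st2 and Ndst3, and Hs3st2 and Hs6st3, lie side by side.

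Of the 10 genes, 6 had a log2 fold change below 0 and 4 above 0 in Fmr1-/y against wild-type libraries, with a median of -0.09 (over all 17823 genes tested, 48.6% were below 0 and the median was 0.0042). In the quasi-likelihood fit of edgeR, adjusted over all genes by the Benjamini-Hochberg method, 0 of the 10 were past 0.05, against 4 genes (0.0224%) of all. An unadjusted p under 0.05 was reached by 3 of the 10, Hs3st4, Hs6st3 and Ndst3, all lower (7.96% of all genes reached that level in either direction, 3.67% lower). With any 1 library left out, 2 to 4 of the 10 reached it. DESeq2 called 1 of the 10, Hs3st4, and 84 genes (0.471%) of all, 53 of them lower (0.297%). The levels of the genotypes did not overlap for 1 of the 10, again Hs3st4, and 73 genes (0.41%) of all were separated in the same direction. The 9 genes without Hs3st4 comprised 5 below and 4 above 0, with a median log2 fold change of -0.05, and neither tool called any of them. As the genes were chosen with this comparison known, these counts are a description.

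**Figure D2:**
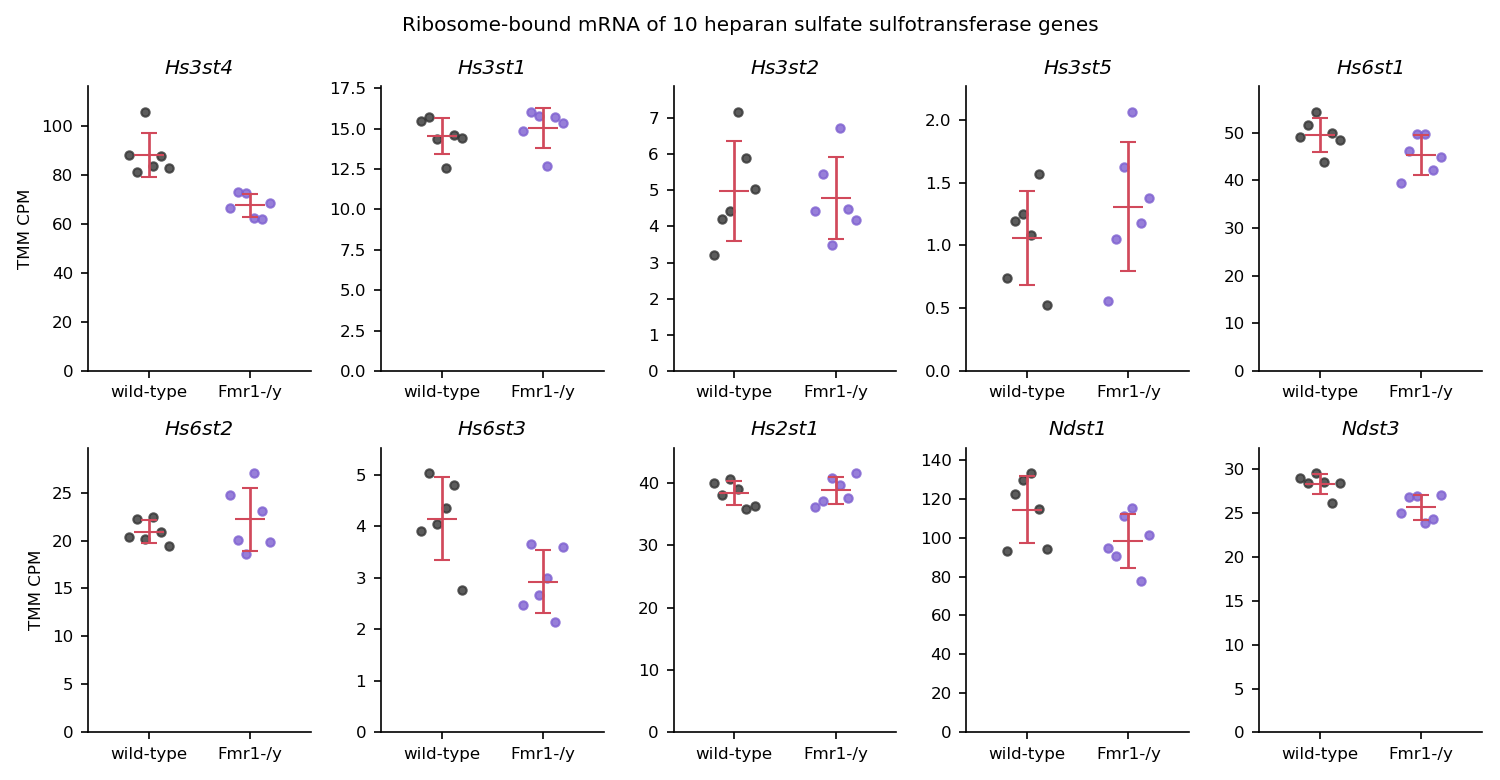
TMM CPM of the 10 genes in each library, 1 panel per gene with its own axis from 0 (black, 6 wild-type; purple, 6 Fmr1-/y), with the mean and SD in red. Only for Hs3st4 are all Fmr1-/y points (61.8 to 73.0 CPM) below all wild-type points (81.1 to 106 CPM), and in the other 9 panels the points of the genotypes overlap.

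Among the 3-O-sulfotransferases, Hs3st4 (Entrez 628779), whose enzyme is known to make a site bound by a herpesvirus glycoprotein, ranged from 81.1 to 106 CPM in wild-type libraries with a median of 85.5 CPM. In Fmr1-/y libraries it ranged from 61.8 to 73.0 CPM with a median of 67.4 CPM. All 6 Fmr1-/y libraries were thus below all 6 wild-type libraries, with wild-type replicate 3 the highest of the 12. The means were 88.0 ± 9.03 and 67.4 ± 4.80 CPM (SD, n = 6 each), so that Fmr1-/y libraries stood at 76.6% of the wild-type mean, a log2 fold change of -0.38 with a standard error of 0.07. Without wild-type replicate 3 the wild-type mean was 84.5 ± 3.06 CPM (SD, n = 5) and the Fmr1-/y libraries stood at 79.8% of it. The log2 fold change lay between -0.41 and -0.33 when any 1 library was left out.

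Beside this difference, the mean summed levels of 4 marker lists were also lower in Fmr1-/y libraries, with overlapping ranges in each. All 5 CA1 markers had lower means, and their summed level stood at 87.4% of wild type. Wfs1, the most abundant of them, stood at 82.9% and the others at 89.0 to 96.8%. Oligodendrocyte markers stood at 89.1% (5 of 6 lower) and interneuron markers at 91.4% (5 of 7 lower). All 5 dentate granule markers (Prox1, Dsp, C1ql2, Tdo2, Lct) had lower means too, with sums of 118 to 151 CPM in wild-type and 98.2 to 134 CPM in Fmr1-/y libraries, 82.6% of wild type. Lct, the most abundant of them, had means of 66.8 and 51.1 CPM, 76.4% of wild type. Prox1 stood at 77.0%, Dsp at 88.6%, Tdo2 at 96.0% and C1ql2 at 96.8%. The lists of astrocytes (6 of 6 markers higher, 116% of wild type), endothelial cells (5 of 5 higher, 129%) and choroid plexus (5 of 5 higher, 136%) stood the other way. The part of these lists in the Hs3st4 difference was not tested.

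Hs3st1, the broadly expressed 3-O-sulfotransferase known for the antithrombin-binding site of heparin, ranged from 12.6 to 15.7 CPM (median 14.5) in wild-type and from 12.7 to 16.0 CPM (median 15.5) in Fmr1-/y libraries. The ranges all but coincided, and the means of 14.5 ± 1.11 and 15.1 ± 1.2 CPM (SD, n = 6 each) gave a log2 fold change of 0.05 with a standard error of 0.09 and an interval (95%, from the standard error) of -0.12 to 0.22. Hs3st2, the gene most like Hs3st4 in coding sequence among those compared, ranged from 3.20 to 7.17 CPM (median 4.72) in wild-type and from 3.50 to 6.73 CPM (median 4.45) in Fmr1-/y libraries. Its libraries were scattered alike in both genotypes, and the log2 fold change of -0.05 had a standard error of 0.19 and an interval of -0.42 to 0.32, which includes the Hs3st4 value. Hs3st5 held 21 to 99 reads in a library. It ranged from 0.525 to 1.57 CPM (median 1.14) in wild-type and from 0.554 to 2.06 CPM (median 1.28) in Fmr1-/y libraries, and its log2 fold change of 0.30 had a standard error of 0.31. That value moved from 0.12 without Fmr1-/y replicate 4, and 0.16 without wild-type replicate 6, to 0.46 without Fmr1-/y replicate 1, and it was 0.09 under DESeq2's fold change prior.

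Per kb and over all 7 genes of the 3-O class, Hs3st4 made up 70.2 ± 2.43% of the class in wild-type and 63.6 ± 1.28% in Fmr1-/y libraries (SD, n = 6 each), with ranges of 67.9 to 74.7% and 61.8 to 64.7%. Hs3st1 made up 22.0 ± 2.23% and 26.9 ± 1.90%. The class as a whole measured 39.2 ± 2.65 CPM per kb and 33.2 ± 1.84 CPM per kb in wild-type and Fmr1-/y libraries, 84.6% of wild type. Without Hs3st4, the other 6 genes summed to 11.6 ± 0.453 and 12.1 ± 0.459 CPM per kb, 103.7% of wild type. The lower class sum was thus that of Hs3st4, the gene chosen for being lower.

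**Figure D3:**
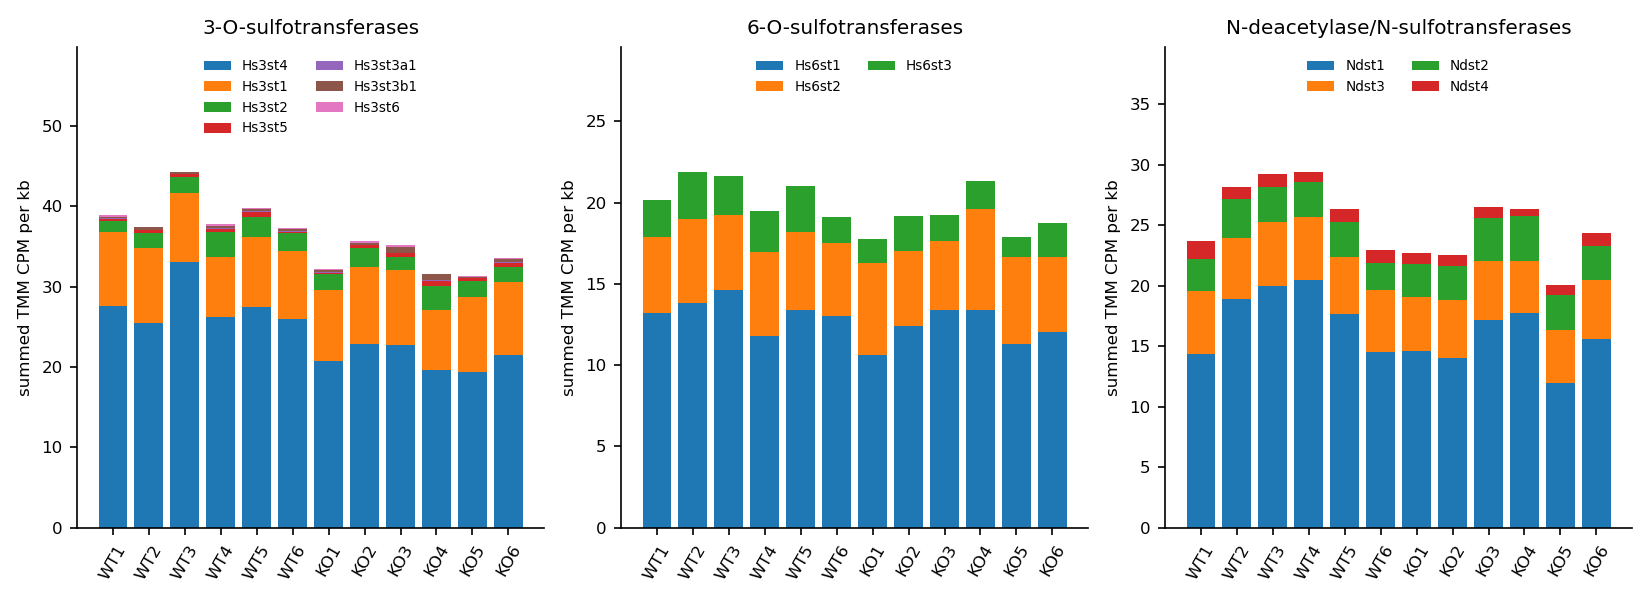
Stacked bars of TMM CPM per kb in each of the 12 libraries for the 3-O-, 6-O- and N-sulfotransferase genes, including those of each class outside the 10. Hs3st4 is the tallest block of the 3-O class in every library, Hs6st1 of the 6-O class and Ndst1 of the N class, and the 3-O sums are 37.3 to 44.3 CPM per kb in wild-type and 31.3 to 35.6 CPM per kb in Fmr1-/y libraries.

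The log2 fold changes of the 6-O-sulfotransferases were on both sides of 0, but the intervals of Hs6st1 and Hs6st2 held 0. Hs6st1, the most abundant of them, ranged from 43.9 to 54.4 CPM (median 49.5) in wild-type and from 39.4 to 49.8 CPM (median 45.5) in Fmr1-/y libraries. Of the Fmr1-/y libraries, 2 lay below the wild-type range and the others within it (log2 fold change -0.13, standard error 0.07, interval -0.27 to 0.02). Hs6st2 ranged from 19.4 to 22.4 CPM (median 20.6) in wild-type and from 18.6 to 27.0 CPM (median 21.6) in Fmr1-/y libraries. Here 3 Fmr1-/y libraries lay above the wild-type range and 1 below it. The log2 fold change of Hs6st2 was 0.09 with a standard error of 0.09 and an interval of -0.09 to 0.27. Its SD was 1.20 CPM between wild-type and 3.27 CPM between Fmr1-/y libraries.

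Hs6st3, the least abundant of the 3 per kb, had the lowest log2 fold change of the 10 genes. It ranged from 2.77 to 5.03 CPM (median 4.20) in wild-type and from 2.15 to 3.67 CPM (median 2.83) in Fmr1-/y libraries, on 111 to 210 reads per library. The 5 wild-type libraries other than replicate 6 were above all Fmr1-/y libraries, and replicate 6, at 2.77 CPM, lay among them. The means of 4.15 ± 0.804 and 2.92 ± 0.614 CPM (SD, n = 6 each) put Fmr1-/y libraries at 70.4% of the wild-type mean, a log2 fold change of -0.51 with a standard error of 0.17 and an interval of -0.85 to -0.17. The difference did not pass 0.05 after adjustment over all genes in either tool, and the log2 fold change stayed between -0.60 and -0.43 when any 1 library was left out of edgeR's fit. Per kb, Hs6st3 made up 11.8 ± 1.94% of the 6-O class in wild-type and 9.0 ± 1.78% in Fmr1-/y libraries, and the class sum stood at 92.5% of wild type.

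Hs2st1, the single 2-O-sulfotransferase gene, was at the same level in both genotypes within a narrow error. It ranged from 35.8 to 40.6 CPM (median 38.6) in wild-type and from 36.1 to 41.5 CPM (median 38.6) in Fmr1-/y libraries. The log2 fold change was 0.02 with a standard error of 0.06, and its interval of -0.11 to 0.14 leaves out a difference the size of that of Hs3st4.

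Ndst1, the widely expressed N-deacetylase/N-sulfotransferase, had the highest level of the 10 genes in CPM and the widest spread for its level. It ranged from 93.2 to 133 CPM (median 118) in wild-type and from 77.5 to 115 CPM (median 97.8) in Fmr1-/y libraries. Of the Fmr1-/y libraries, 2 lay below the wild-type range, and no Fmr1-/y library lay above it (log2 fold change -0.22, standard error 0.11, interval -0.42 to -0.01). Although this interval, from a normal quantile, leaves out 0, the unadjusted p was 0.0537 in edgeR's quasi-likelihood test, so Ndst1 did not pass 0.05 there. Ndst3, whose enzyme is enriched in brain, was by contrast steady. It ranged from 26.2 to 29.5 CPM (median 28.5) in wild-type and from 23.9 to 27.1 CPM (median 25.9) in Fmr1-/y libraries. Wild-type replicate 5, at 26.2 CPM, was the lowest of its group and the only one within the Fmr1-/y range, and 3 Fmr1-/y libraries lay below all of wild type. The means of 28.4 ± 1.15 and 25.7 ± 1.44 CPM (SD, n = 6 each) gave 90.6%, a log2 fold change of -0.14 with a standard error of 0.07 and an interval of -0.27 to -0.01. The class sum of the 4 N-sulfotransferase genes stood at 89.2% of wild type, with 66.0 ± 3.31% of it from Ndst1 in wild-type and 63.7 ± 2.58% in Fmr1-/y libraries.

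The spread between pools of 1 genotype was unlike between the genes. Set against the 500 genes nearest in level, the within-genotype SD of log2 CPM of Ndst3 (0.0712) was above that of 1.6% of them and that of Hs2st1 (0.0765) above 4.2%. Hs3st1 (0.120, above 11.4%) was also steady. Hs3st4 (0.122) lay in the middle, above 50.2% of genes of its level, while Ndst1 (0.217) was above 89.4% and Hs3st2 (0.365) above 81.8%. These shares describe where each gene stood and carry no test.

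None of the other genes of the pathway passed the threshold. Of 58 genes written down in 9 lists, 57 were tested, 27 with a log2 fold change below 0 and 30 above, with a median of 0.02 and adjusted p from 0.493 upwards in edgeR, and neither edgeR nor DESeq2 called any. An unadjusted p under 0.05 was reached by 5 lower (3.67% of all genes) and 10 higher genes (4.29% of all genes). The count of 15 became 7 to 14 with any 1 library left out. It was 7 without Fmr1-/y replicate 1, 8 without wild-type replicate 3 and 9 without Fmr1-/y replicate 4, wild-type replicate 2 or wild-type replicate 5. Genes outside the 15 entered these counts, such as Hpse2 without Fmr1-/y replicate 1 and Chst15 without wild-type replicate 3. The untested gene was Chst13, which had too few reads.

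Among the sulfotransferases of heparan sulfate outside the 10, 3 were below 0 and 2 above. The lowest log2 fold change was that of Hs3st6 (-0.30, standard error 0.68), at means of 0.190 and 0.153 CPM in wild-type and Fmr1-/y libraries, and the highest that of Hs3st3b1 (0.73, standard error 0.33), at 1.22 ± 0.211 and 2.03 ± 1.18 CPM (SD, n = 6 each), where the Fmr1-/y libraries ran from 0.751 to 3.46 CPM and held the whole wild-type range. Of the genes for the linkage region that joins the chain to its protein, 4 were below and 3 above 0, from Xylt1, the xylosyltransferase that begins it (-0.45, standard error 0.20), to B3galt6 (0.16, standard error 0.13). Of the 5 genes for chain polymerisation 4 were below 0, from Ext1, a subunit of the polymerase (-0.17, standard error 0.07), to Extl2 (0.06, standard error 0.06). The epimerase gene Glce was at -0.01 with a standard error of 0.12.

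The 2 endosulfatases, which remove 6-O-sulfates outside the cell, stood on opposite sides, with Sulf2 at -0.28 (standard error 0.11) and Sulf1 at 0.38 (standard error 0.21) on the log2 scale. Sulf1 ran from 54.2 to 117 CPM in wild-type and from 56.1 to 148 CPM in Fmr1-/y libraries, and Sulf2 from 43.6 to 67.9 CPM and from 34.7 to 53.3 CPM. Of the genes that supply the sulfate donor, 3 were below and 3 above 0, from Papss2 (-0.05, standard error 0.11), a synthase of the donor, to Slc35b3 (0.30, standard error 0.12), which carries it into the Golgi.

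The core proteins that bear the chains were the list most to one side, with 2 of 13 below 0 and 11 above, a median log2 fold change of 0.15, and 4 at an unadjusted p under 0.05, all higher (Hspg2, Sdc4, Gpc5 and Col18a1, named after their values were seen). Over all genes, 48.6% were below 0 and 4.29% reached that level upwards. Hspg2, perlecan of basement membranes, was the single one of the 4 to reach it without Fmr1-/y replicate 1, without wild-type replicate 2 and without wild-type replicate 3, and 2 reached it without wild-type replicate 6. Without Fmr1-/y replicate 1 the median was 0.07, with 11 of 13 still above 0. The lowest was Agrn, agrin, at -0.07 (standard error 0.06), and the highest Col18a1, a collagen of basement membranes, at 0.42 (standard error 0.19), with 10.5 ± 2.79 and 14.1 ± 4.10 CPM in wild-type and Fmr1-/y libraries (SD, n = 6 each). Beside these genes the marker sums of endothelial cells (5 of 5 markers higher), choroid plexus (5 of 5 higher) and astrocytes (6 of 6 higher) stood at 129%, 136% and 116% of wild type. Fmr1-/y replicate 1 was the highest of the 12 libraries for the astrocyte sum (1240 CPM) and the choroid plexus sum (17505 CPM), and also for Sdc4 (157 CPM), Gpc5 (46.8 CPM), Hspg2 (14.5 CPM) and Col18a1 (19.4 CPM). The part of these lists in the core protein values was not tested. Of the degradation genes 4 were below and 7 above 0, from Hpse2 (-1.31, standard error 1.14), which was near 0 at means of 0.0826 and 0.0318 CPM, to the sulfatase gene Arsg (0.35, standard error 0.16). Of the 7 tested sulfotransferases of the related chains chondroitin and dermatan sulfate, 5 were below and 2 above 0, from Chst3 (-0.30, standard error 0.15) to Chst7 (0.24, standard error 0.35).

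**Figure D4:**
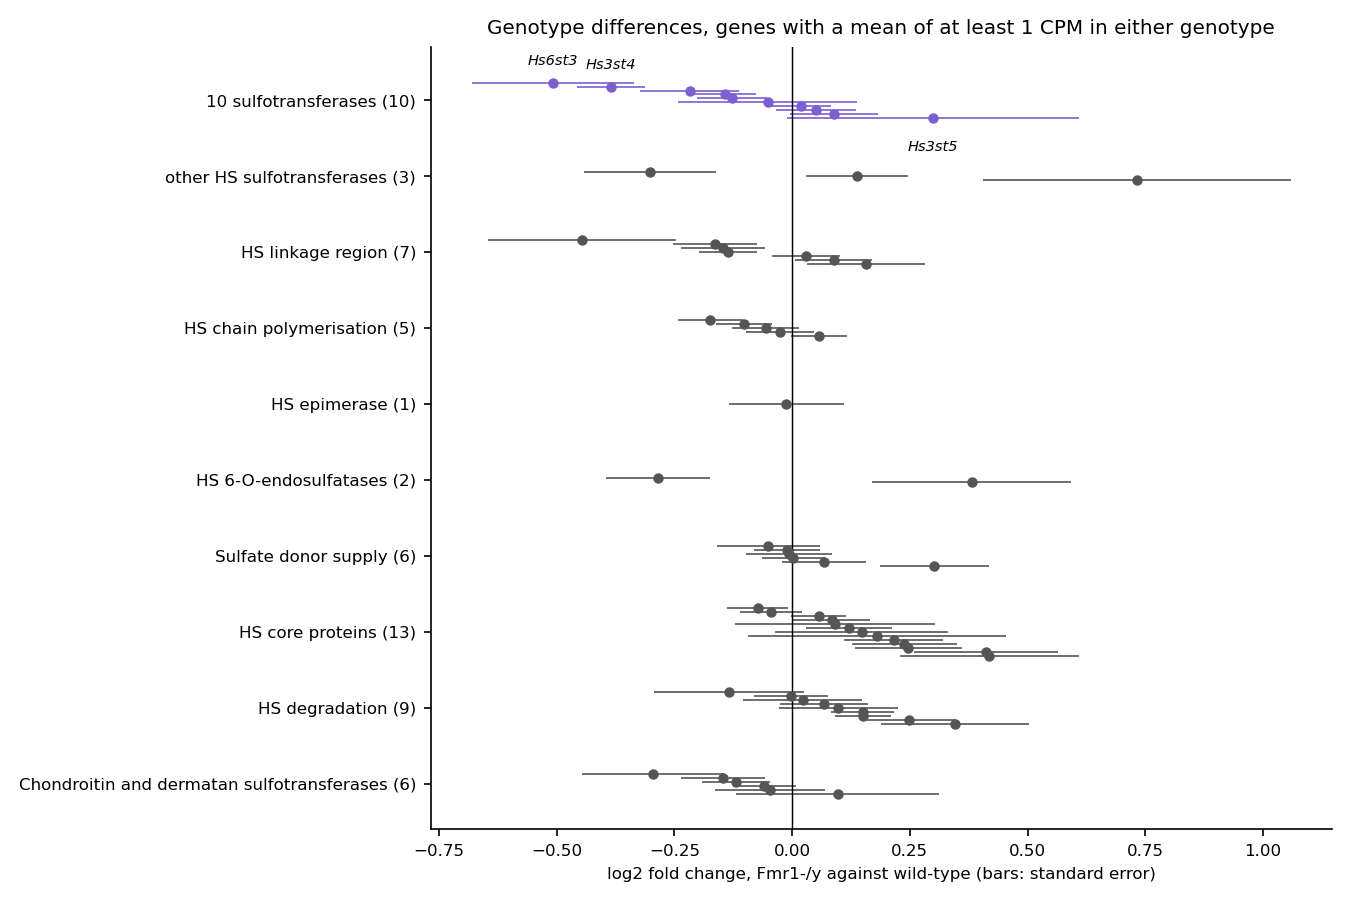
Log2 fold change of Fmr1-/y against wild-type libraries with its standard error (bars) for the 10 sulfotransferases (purple) and 9 pathway lists (grey), for genes with a mean of at least 1 CPM in either genotype, with the number drawn after each name. Hs6st3 (-0.51) and Hs3st4 (-0.38) lie farthest left among the 10, Hs3st5 (0.30) farthest right, and 11 of the 13 core proteins lie right of 0.

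The 10 genes moved in different ways with the cell type markers between pools of the same genotype. In all, 120 relations between a gene and a summed marker list were computed over the 12 libraries after the mean of each genotype was removed. These are descriptions without a test, since the libraries share depth and composition. Each sum weighs its most abundant markers most, such as Lct in the dentate granule list and Wfs1 in the CA1 list. Hs3st1 followed the CA1 markers most closely, with Pearson's r = 0.88 and Spearman's rho = 0.83. Of the 12788 genes whose mean log2 CPM was over 1, 0.250% had an r at least as far from 0. The shares of genes given below for other relations with markers are of the same set. The r of Hs3st1 with CA1 markers was 0.97 within wild-type and 0.80 within Fmr1-/y libraries. It ran from 0.81 to 0.94 with any 1 library left out, and it was 0.59 without the 2 libraries farthest from the median of the CA1 sum.

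Hs3st2 stood the other way to CA1 markers (r = -0.73, rho = -0.61) and followed interneuron markers (r = 0.78, rho = 0.80), the latter in wild-type libraries (0.95) more than in Fmr1-/y libraries (0.43). Without the 2 libraries farthest from the median of the marker sum, its r was -0.32 with CA1 markers and 0.52 with interneuron markers, so that both relations lean on those libraries. With CA3 markers its r was 0.70 (rho = 0.76), at 0.97 within wild-type, 0.58 within Fmr1-/y libraries and 0.94 without the 2 libraries farthest from the median of that sum. Hs3st1 and Hs3st2 themselves had an r of -0.76. Wild-type replicate 4 was the lowest wild-type library for Hs3st1 (12.6 CPM) and for the CA1 sum (2040 CPM) and the highest for Hs3st2 (7.17 CPM) and the interneuron sum (220 CPM).

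Hs3st4 followed CA1 markers only weakly, with 70.5% of genes at an r at least as far from 0, and the gap in r between the genotypes was not tested. Its r with them was 0.22 (rho = 0.28) over the 12 libraries, -0.02 within wild-type and 0.59 within Fmr1-/y libraries, and -0.14 without the 2 libraries farthest from the median of the CA1 sum. Its r was -0.07 with interneuron markers (rho = -0.05) and 0.70 with dentate granule markers (rho = 0.75), where 1.48% of genes had an r at least as far from 0. This last r was 0.60 within wild-type and 0.86 within Fmr1-/y libraries, and 0.63 without the 2 libraries farthest from the median of the dentate sum. With oligodendrocyte markers the r of Hs3st4 was 0.50 (rho = 0.52), and 32.4% of genes had an r at least as far from 0. It was 0.33 within wild-type, 0.78 within Fmr1-/y libraries and 0.70 without the 2 farthest libraries. With CA3 markers the r of Hs3st4 was -0.52 (rho = -0.69), and 13.9% of genes had one at least as far from 0. That r was -0.29 within wild-type, -0.79 within Fmr1-/y libraries and -0.20 without the 2 farthest libraries. Ndst1 followed oligodendrocyte markers (r = 0.75, rho = 0.64, with 0.88 within wild-type and 0.59 within Fmr1-/y libraries). It stood against CA2 markers (r = -0.85, rho = -0.92), and 7.72% of the 12788 genes had an r at least as far from 0.

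**Figure D5:**
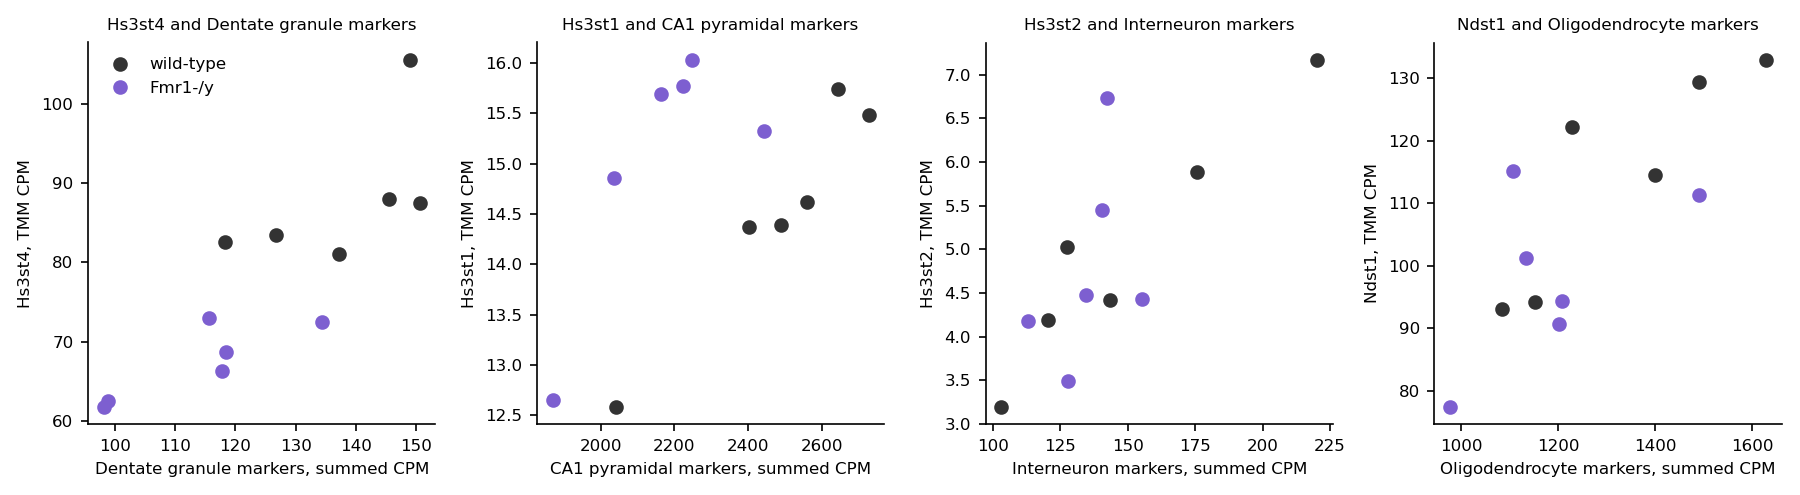
TMM CPM of 4 genes against the summed CPM of a marker list in the same library (black, 6 wild-type; purple, 6 Fmr1-/y); axes do not start at 0. After removal of the genotype means, r was 0.70 for Hs3st4 with dentate granule markers, and the other panels show Hs3st1 with CA1 markers (r = 0.88), Hs3st2 with interneuron markers (r = 0.78) and Ndst1 with oligodendrocyte markers (r = 0.75).

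The genes whose deviations from the genotype means were most like those of Hs3st4 over the 12 libraries, of the 10244 whose mean log2 CPM was over 3, were Mtfr1l (r = 0.85), 3110082I17Rik (0.85), Rnf182 (0.85) and Zfp667 (0.81), and those most opposed were Prmt10 (-0.86), Tmem209 (-0.85) and Ythdc2 (-0.81). Over these genes, 95% of r lay between -0.53 and 0.53. Within the 10, the r with Hs3st4 was highest for Ndst3 (0.60) and lowest for Hs6st2 (-0.58). The ranks changed with wild-type replicate 3: without it 0 of the 7 genes were among the 7 named by the same rule. The r of the 7 without that library stayed on the same side of 0, at 0.61 for Mtfr1l, 0.79 for 3110082I17Rik, 0.71 for Rnf182, 0.75 for Zfp667, -0.63 for Prmt10, -0.83 for Tmem209 and -0.79 for Ythdc2.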

How the data were processed

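Ribosome-bound mRNA of 12 pools, 6 per genotype, was sequenced (50-nucleotide single reads, stranded libraries of polyadenylated RNA). The authors aligned the reads to mm10 with UCSC gene models (TopHat2 2.1.1, Bowtie2 2.2.8), discarded alignments with over 3 mismatches, counted reads per gene on the opposite strand with HTSeq 0.6.1p1 in union mode, and deposited raw counts of 24079 genes. How reads with several matches were treated is not given in the sources used here. Depth was 39400980 to 65565479 reads per library.

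Genes with at least 15 reads in total (17823) were compared with edgeR 4.0.16 (TMM, quasi-likelihood test, no block, Benjamini-Hochberg adjustment, threshold 0.05) in R 4.3.3, in place of the DESeq2 of the study, run here as version 1.42.0. limma 3.58.1 was an alternative. Standard errors were derived from each log2 fold change and its F statistic. Lengths are those of GENCODE vM21 transcripts and positions those of RefSeq, both GRCm38 (mm10). Log2 CPM used a prior count of 2. The fits were tested on simulated data. Named were all 10 genes, the lowest and highest log2 fold change of each list with any called gene, the 5 genes most like and the 3 least like Hs3st4, and cell type markers, except that 2 genes are not reported here and were left out of the markers and of the genes most like Hs3st4, so that 7 are named there. The members, lists and rules were chosen with earlier results of these data known. The p-values measure the spread between pools. Alternatives are given in the closing section, with DESeq2 fits that leave out a library, and the marker relations and unadjusted counts of lists with a library left out, added after the data were seen.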

Additional observations from a re-analysis of the deposited data

Results flagged for a closer look

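Over 44 sets of 6 libraries searched for a library far from the others by Dixon's ratio, 3 passed, where chance gives about 1 in 20 sets, or 2.2. For Hs3st4 in wild-type libraries the ratio was 0.720, with replicate 3 at 106 CPM and the others between 81.1 and 88.0 CPM. For Hs3st1 in Fmr1-/y libraries it was 0.652, with replicate 4 at 12.7 CPM and the others between 14.9 and 16.0 CPM. For Ndst3 in wild-type libraries it was 0.670, with replicate 5 at 26.2 CPM and the others between 28.4 and 29.5 CPM.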

How the results depend on the processing

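Over the 10 genes and 32 alternatives each, 296 of 320 log2 fold changes kept their direction and their side of the threshold, and 14 passed it, all of them Hs3st4 in DESeq2. The other 10 changed sign, all near 0: with 1 library left out, Hs3st2 ran from -0.1723 to 0.0812 and Hs2st1 from -0.0024 to 0.0378, and Hs3st2 was at 0.0812 (edgeR) and 0.0802 (DESeq2) without wild-type replicate 4, at 0.0016 and 0.0002 without wild-type replicate 5, and at 0.0236 and 0.0214 without Fmr1-/y replicate 3, and Hs2st1 was at -0.0003 and -0.0024 without wild-type replicate 5 and at -0.0021 and -0.0016 without Fmr1-/y replicate 6.

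Of the 10 genes, edgeR called 0 and DESeq2 1, with or without its fold change prior, and leaving out any 1 library kept these counts (0 to 1 over both tools). Over all genes edgeR called 4, or 1 with at least 10 reads in every library, DESeq2 84 and, with the prior, 82. The filter of 10 reads leaves out Fmr1, itself among the 4, which held 0 or 1 read in each Fmr1-/y library. With 1 library left out the counts ran from 2 to 147 over both tools (edgeR 2 to 6, DESeq2 35 to 147). No setting called another gene of the pathway. The cause of the difference between the tools was not tested.

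Replicate numbers were not taken as pairing: same-numbered libraries had a mean correlation of 0.0246 over all genes (from -0.0809 to 0.0899), 0.0994 at a mean log2 CPM over 1 (from -0.243 to 0.348) and 0.155 at one over 5 (from -0.443 to 0.599), with pairs on both sides of 0 each time, and not every library correlated best with its own number. With the replicate number as a block, edgeR called 4 genes, 0 of the 10 and 0 of the other pathway genes. With lengths from the exon union, 6 of the 9 neighbouring pairs in the order of levels passed, with mean transcript lengths 8, and with either genotype alone 7. Of the 7 genes named as most like or unlike Hs3st4, 1 was shared with Spearman's rho, 2 with a mean log2 CPM over 5, 3 with library totals, and 0 to 6 with 1 library left out. Hs3st5, Hs3st3a1, Hs3st6, Hpse and Hpse2 held few reads, and the part of depth in their spread was not tested.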
